A study of Rattus norvegicus with 6 samples.

Results

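Of the 22250 genes listed in the count tables of BRIN-BD11 cells, 6 that encode abundant chaperones and folding enzymes of the endoplasmic reticulum were examined, and all 6 were measured in every library and passed the filter on low counts. They were taken by Ensembl identifier of the rat genome Rnor_6.0, namely Hspa5 (ENSRNOG00000018294), Hsp90b1 (ENSRNOG00000026963), Pdia4 (ENSRNOG00000006228), P4hb (ENSRNOG00000036689), Calr (ENSRNOG00000003029) and Canx (ENSRNOG00000003343). The pairing of these symbols with the identifiers was given beforehand and was not checked here, since the count tables hold identifiers alone. BRIN-BD11 is a rat insulin-secreting beta-cell line, obtained by fusing insulinoma cells (RINm5F) with NEDH islet cells, so it stands for 1 transformed line and not for islet tissue. At passage 25, 3 control libraries labelled WT, from cells with no inhibitor, were compared with 3 libraries from cells kept for 16 h with 5 µM MS-275, also named entinostat, which inhibits the histone deacetylases of class I. According to the labels, MS-275 was dissolved in 0.1% DMSO, and no vehicle is named for the controls. The text of the study gives a lower DMSO content for the controls, so an effect of the vehicle and one of MS-275 cannot be told apart. The beta-cell identity of the cells was not checked here, because the marker genes could not be matched to identifiers.

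The endoplasmic reticulum is where secreted and membrane proteins fold, and a beta cell passes large amounts of proinsulin through it. Hspa5, also called BiP or GRP78, is the HSP70 of the lumen. It holds unfolded chains and keeps the sensors of the unfolded protein response inactive. Hsp90b1, or GRP94, is the lumenal HSP90. P4hb is the classical protein disulphide isomerase and Pdia4, or ERp72, is a relative of it, and both form and rearrange disulphide bonds, which proinsulin needs. Calr, calreticulin, is a soluble lectin of the lumen that also binds calcium, and Canx, calnexin, is its membrane-bound counterpart. The lectins hold newly made glycoproteins until they are folded. When unfolded proteins accumulate, the transcription factors ATF6 and XBP1 raise many of these genes through the endoplasmic reticulum stress response element (ERSE), a CCAAT box that lies 9 bases from CCACG.

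The promoters of the 6 genes are shown as a description that does not use the counts. The genes were taken as known chaperones, and the ERSE is known as an element of such genes. Its frequency among them, set beside that of all windows, is therefore no test. RefSeq's promoter table held a window for 6 of 6 genes. It follows the assembly GRCr8, whereas the reads were counted on Rnor_6.0. The sequences run 5′ to 3′ on the strand of the gene over the 250 bases before the annotated start. Capitals mark each CCAAT box on either strand, and where an exact ERSE is present the whole element is in capitals.
Hspa5, chr3:38452766-38453015, + strand: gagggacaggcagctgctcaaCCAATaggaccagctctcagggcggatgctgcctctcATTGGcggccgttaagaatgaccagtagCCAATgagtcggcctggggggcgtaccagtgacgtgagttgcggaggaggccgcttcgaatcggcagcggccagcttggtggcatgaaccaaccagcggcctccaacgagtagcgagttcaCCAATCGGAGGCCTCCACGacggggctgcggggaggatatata
Hsp90b1, chr7:23012294-23012543, - strand: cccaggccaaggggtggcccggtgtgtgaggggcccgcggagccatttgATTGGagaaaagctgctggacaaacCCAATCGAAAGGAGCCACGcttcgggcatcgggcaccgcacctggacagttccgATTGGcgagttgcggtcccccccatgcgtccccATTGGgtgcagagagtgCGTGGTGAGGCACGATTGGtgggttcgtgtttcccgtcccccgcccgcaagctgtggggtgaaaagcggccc
Calr, chr19:40213117-40213366, + strand: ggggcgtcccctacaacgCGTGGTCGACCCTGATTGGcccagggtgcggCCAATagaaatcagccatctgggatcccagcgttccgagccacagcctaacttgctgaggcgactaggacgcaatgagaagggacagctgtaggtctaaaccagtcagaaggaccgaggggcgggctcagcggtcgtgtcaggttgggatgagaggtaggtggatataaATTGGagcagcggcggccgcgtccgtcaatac
Canx, chr10:35157858-35158107, - strand: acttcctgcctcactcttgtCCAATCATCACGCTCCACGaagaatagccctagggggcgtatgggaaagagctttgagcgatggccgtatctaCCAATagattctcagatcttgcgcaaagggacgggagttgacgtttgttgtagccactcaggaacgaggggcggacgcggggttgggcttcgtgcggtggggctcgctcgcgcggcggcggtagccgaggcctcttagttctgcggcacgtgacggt
Pdia4, chr4:78153192-78153441, - strand: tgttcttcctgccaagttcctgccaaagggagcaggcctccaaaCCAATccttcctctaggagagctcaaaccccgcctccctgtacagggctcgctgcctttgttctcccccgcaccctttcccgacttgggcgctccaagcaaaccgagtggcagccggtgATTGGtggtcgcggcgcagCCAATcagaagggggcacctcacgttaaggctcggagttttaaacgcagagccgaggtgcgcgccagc
P4hb, chr10:106346912-106347161, - strand: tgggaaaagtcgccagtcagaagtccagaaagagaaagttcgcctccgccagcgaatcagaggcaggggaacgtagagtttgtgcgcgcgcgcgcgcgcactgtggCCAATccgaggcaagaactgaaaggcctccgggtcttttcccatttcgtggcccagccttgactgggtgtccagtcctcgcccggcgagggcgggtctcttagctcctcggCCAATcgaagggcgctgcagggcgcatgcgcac

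An exact ERSE, searched as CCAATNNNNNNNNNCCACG on both strands, was found in the windows of 4 of the 6 genes. In Hspa5 it lay between bases -43 and -25 from the start, ahead of the TATA stretch with which the printed sequence ends. Hsp90b1 held 2 of them, at -176 to -158 and, on the opposite strand, at -72 to -54. That of Calr lay at -232 to -214 on the opposite strand and that of Canx at -230 to -212. Over all 33469 windows of the table, which run from 250 bases before to 50 bases after the start, 22 (0.0657%) held an exact ERSE. No exact ERSE was found in the windows of Pdia4 and P4hb. Pdia4 had a match with 1 of the last 5 bases different, at -101 to -83, a form that 0.932% of the windows held and that occurred in the window of Hsp90b1 as well. CCAAT boxes, which are part of the ERSE and so overlap it, numbered between 2 and 5 before the start of each gene. At least 2 of them were present in the windows of 6 of 6 genes, against 11.2% of all windows. The ERSE-II (ATTGGNCCACG), the UPRE (TGACGTGG) and the CRE (TGACGTCA) were found in 0 of the 6 windows, and 0.0508%, 0.595% and 1.83% of all windows held them. These matches describe letters in a window and do not show that a factor binds there.

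**Figure D1:**
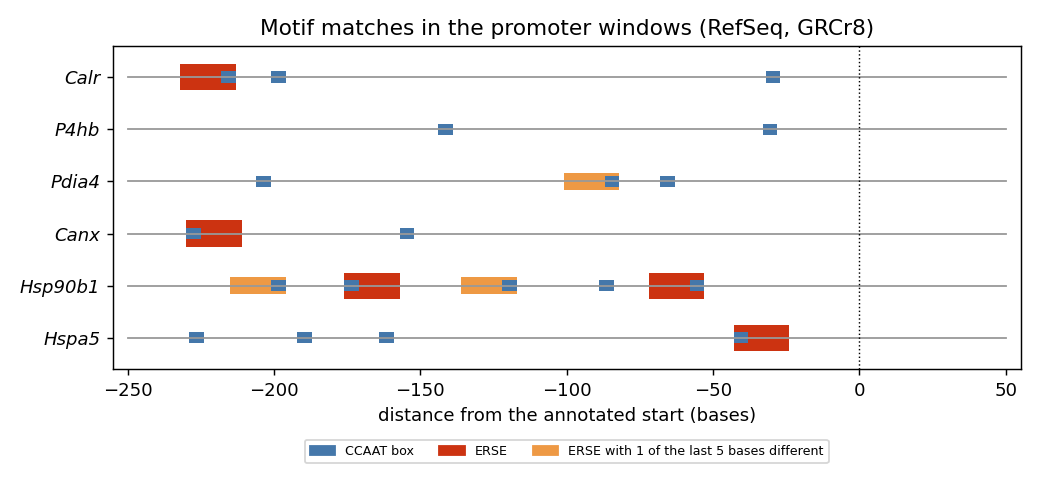
Positions of motif matches from 250 bases before to 50 bases after the annotated start of each gene, in bases, with the genes ordered by their log2 fold change. Blue blocks are CCAAT boxes, red blocks exact ERSE matches (Calr, Canx, Hsp90b1 and Hspa5) and orange blocks matches with 1 of the last 5 bases different (Pdia4 and Hsp90b1).

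The same element occurred in other genes of the pathway. Of 107 symbols in 7 lists of endoplasmic reticulum genes, 92 had a promoter window and 5 of these held an exact ERSE. They were Xbp1, the transcription factor itself, Creld2, a stress-induced protein of the lumen, Dnajc3, a co-chaperone of Hspa5, Ero1b, an oxidase that recharges disulphide isomerases and is abundant in beta cells, and Derl3, a part of the degradation machinery. Of 28 cytosolic and mitochondrial chaperones, 25 had a window and 0 held the element. Outside these lists and the 6 genes, 12 of 27334 symbols held it. The lists were not compared in the counts, because their symbols could not be matched to identifiers.

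The libraries held between 5230555 and 9172422 counts on genes, and 12596 genes had enough counts for a test. CPM, the usual scaled read counts, are counts divided by the library total and multiplied up to a common total, after TMM scaling, which corrects for library composition (factors between 0.976 and 1.03). Tests were made with the quasi-likelihood method of edgeR, with Benjamini-Hochberg adjustment over all 12596 genes. The replicate pairs within a group differed by more than sampling noise, with a chi-square per degree of freedom between 1.79 and 11.0. Whether the libraries of a group came from independent cultures is not stated, so the p-values measure the spread between these libraries, which may be technical. The labels give no sequencing or preparation batch.

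All 6 chaperone genes rose with MS-275 (adjusted p under 0.05), and none fell. Over all tested genes, 32.1% were called higher by the same rule and 31.5% lower. The median log2 fold change of the 6 genes was 0.65, whereas that of all tested genes was -0.01. The increases were moderate, between 1.32-fold and 1.95-fold. With a log2 fold change of at least 1 as a further condition, 0 of the 6 genes were called, against 13.9% of all tested genes. In 6 of 6 genes every MS-275 library lay above every control, which was the case in 34.1% of the tested genes. In the controls the 6 genes took more reads than 98.4% (Pdia4) to 99.8% (Hspa5) of tested genes. The shares over all tested genes are not matched for level and include many genes with fewer counts, where a difference is harder to call. The 6 genes were chosen with earlier results of these data known, so these contrasts are a description and no independent test. CPM give the share of a gene in the counted RNA of the culture, and in such bulk samples more cells that express a gene and more RNA per cell cannot be told apart.

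**Figure D2:**
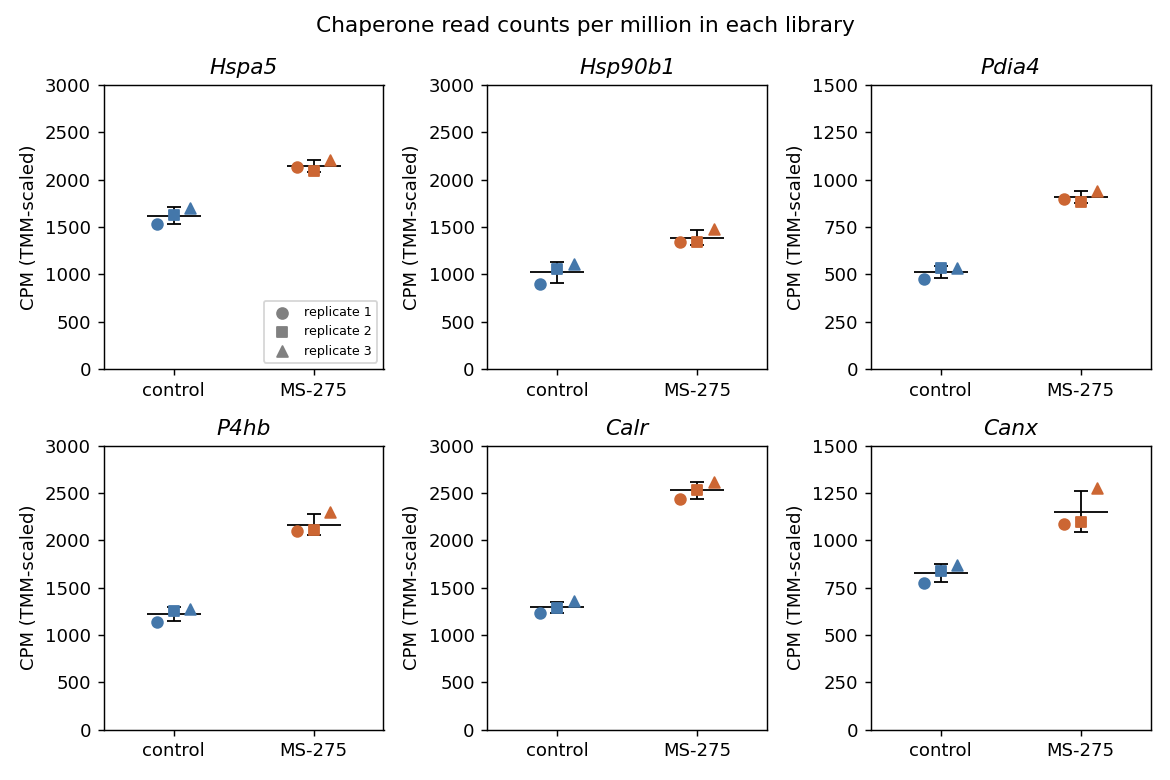
CPM (TMM-scaled) of each gene in the 3 control libraries (blue) and the 3 MS-275 libraries (orange), with marker shapes for replicate numbers, a horizontal line for the mean and bars for the SD (n = 3); the axes start at 0, and those of Pdia4 and Canx reach 0.5 times as high as the others. In every panel the MS-275 libraries lie above the controls. As a ratio of the lowest MS-275 library to the highest control, the gap is widest in Calr, Pdia4 and P4hb.

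Calr had the largest increase of the 6. In the controls its level was 1237, 1284 and 1358 CPM, given here and below in the order of replicates 1 to 3, and in the treated libraries it was 2437, 2528 and 2618 CPM. The lowest MS-275 library was 1.79 times the highest control. The mean went from 1293 ± 60.7 CPM (SD, n = 3) to 2528 ± 90.2 CPM (SD, n = 3). The fold change was 1.95 with a 95% interval from 1.75 to 2.19 (log2 fold change 0.97, standard error 0.08, adjusted p = 4.67e-08 in edgeR's quasi-likelihood test). The interval includes a log2 fold change of 1.

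Canx, the membrane-bound lectin of the same cycle, rose less. The controls had 776, 839 and 872 CPM and the MS-275 libraries 1086, 1096 and 1274 CPM. MS-275 replicate 3 stood above the other two treated libraries, and the groups did not overlap. The means were 829 ± 48.4 CPM (SD, n = 3) and 1152 ± 106 CPM (SD, n = 3). This was a 1.39-fold increase with an interval from 1.23 to 1.57 (log2 fold change 0.48, standard error 0.08, adjusted p = 0.00013 in edgeR's test).

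The disulphide isomerases rose by nearly the same factor. P4hb had 1139, 1249.7 and 1274 CPM in the controls and 2096, 2107 and 2297 CPM with MS-275, so that every treated library was at least 1.64 times every control. Its mean went from 1221 ± 72.1 to 2167 ± 113 CPM (SD, n = 3 each), a 1.77-fold increase with an interval from 1.58 to 1.99 (log2 fold change 0.83, standard error 0.08, adjusted p = 3.05e-07 in edgeR's test). Pdia4, which took the fewest reads of the 6 genes, had 475, 531 and 533 CPM in the controls and 900.0, 884 and 942 CPM with MS-275. The values within each group lay close together and the lowest treated library was 1.66 times the highest control. Its mean went from 513 ± 32.9 to 909 ± 29.9 CPM (SD, n = 3 each), again 1.77-fold, with an interval from 1.58 to 1.98 (log2 fold change 0.82, standard error 0.08, adjusted p = 2.18e-07 in edgeR's test).

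The lumenal HSP70 and HSP90 had the smallest increases. Hspa5 had 1530.4, 1622 and 1705 CPM in the controls and 2133, 2088 and 2212 CPM with MS-275. The groups were apart, with the lowest treated library 1.23 times the highest control. The mean went from 1619 ± 87.1 to 2145 ± 62.7 CPM (SD, n = 3 each), a 1.32-fold increase with an interval from 1.18 to 1.48 (log2 fold change 0.41, standard error 0.08, adjusted p = 0.000234 in edgeR's test). Hsp90b1 had 898, 1057 and 1108 CPM in the controls, of which replicate 1 was the lowest, and 1343, 1336 and 1483 CPM with MS-275. Its mean went from 1021 ± 109.8 to 1387 ± 83.3 CPM (SD, n = 3 each). The increase was 1.36-fold with an interval from 1.19 to 1.55 (log2 fold change 0.44, standard error 0.09, adjusted p = 0.000391 in edgeR's test).

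The exact permutation test on log2 CPM (two-sided) gave p = 0.1 for each of the 6 genes. No smaller value can be had from 3 libraries a group, and groups without overlap always give it. In order of the fold change the genes were Calr, P4hb, Pdia4, Canx, Hsp90b1 and Hspa5. The intervals of P4hb and Pdia4 nearly coincided, as did those of Canx, Hsp90b1 and Hspa5, so the order within these sets is not settled. The intervals of Calr, P4hb and Pdia4 overlapped one another. The lower bounds of Calr, P4hb and Pdia4, on the log2 scale 0.81, 0.66 and 0.66, were above the upper bounds of Canx, Hsp90b1 and Hspa5, which were 0.65, 0.63 and 0.57. Among all tested genes, 85.5% had a lower log2 fold change than Calr, 82.8% a lower one than P4hb and 82.7% a lower one than Pdia4. For Canx, Hsp90b1 and Hspa5 the shares were 73.3%, 72.0% and 70.6%. The 6 genes thus lay in the upper part of the distribution but not in its far tail.

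**Figure D3:**
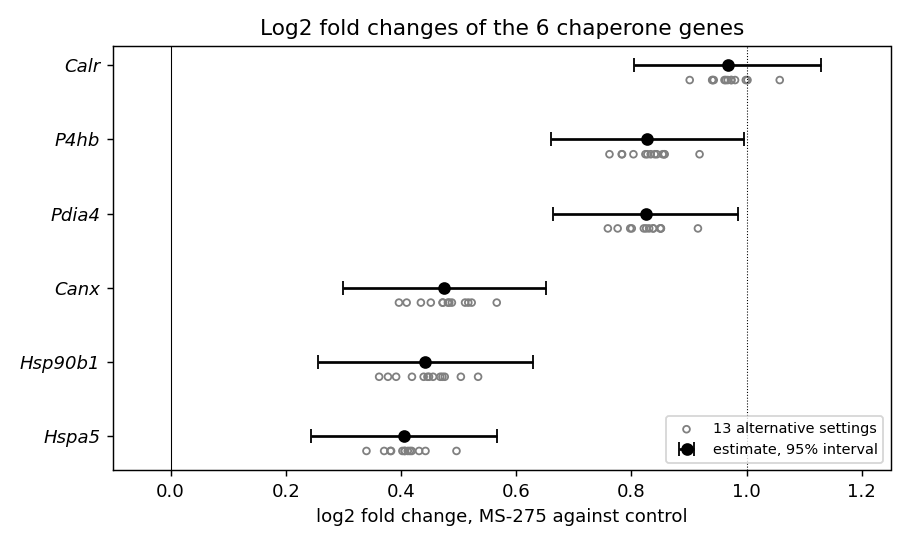
Log2 fold change of MS-275 against control for each gene (black points, bars for the 95% interval) and its value under 13 alternative settings of scaling, test, filter, block and library set (grey circles). Calr, P4hb and Pdia4 lie between 0.82 and 0.97 and Canx, Hsp90b1 and Hspa5 between 0.41 and 0.48; the dotted line marks a log2 fold change of 1.

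**Figure D4:**
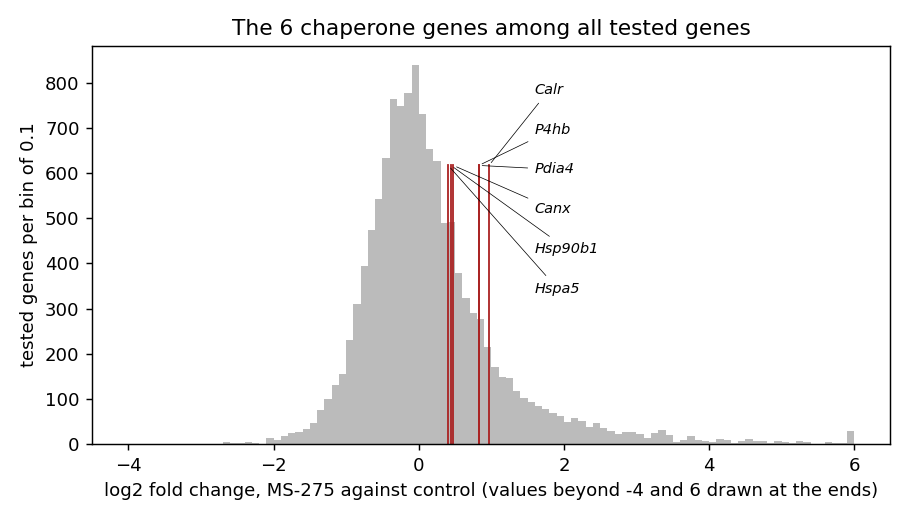
Number of tested genes per bin of 0.1 of the log2 fold change of MS-275 against control, with the 6 chaperone genes as red lines. The median of all 12596 genes is -0.01, and the 6 genes lie between 0.41 and 0.97 on its upper side.

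Presence of an exact ERSE did not follow this order. Calr, with the largest fold change, and Hspa5, with the smallest, both held one. P4hb and Pdia4, which came next after Calr, held no exact match in the windows searched. Pdia4, like Hsp90b1, held a match with 1 of the last 5 bases different. Whether the element has a part in the increases was not tested.

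The controls kept the same order across the 6 genes, and the treated libraries shared only their highest library. Control replicate 1 was the lowest control in 6 of 6 genes and control replicate 3 the highest in 6 of 6, against 37.2% and 33.2% of all tested genes. MS-275 replicate 3, the library with the most counts, was the highest treated library in 6 of 6 genes, against 37.4% of all tested genes. The lowest treated library was replicate 1 in 3 genes and replicate 2 in 3, against 38.1% and 25.7% of all tested genes. The coefficient of variation within a group ranged from 2.92% for Hspa5 with MS-275 to 10.7% for Hsp90b1 in the controls. Without control replicate 1 the median log2 fold change of the 6 genes was 0.61, and without MS-275 replicate 3 it was 0.59, with 6 of 6 genes called in both cases. Control replicate 3 had the fewest counts of the controls (5692971, against 7700713 and 7982477 in replicates 1 and 2). The highest library of a group was thus the deepest with MS-275 and the shallowest in the controls. Whether depth has a part in this order was not tested.

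Together the 6 genes took 0.625%, 0.671% and 0.695% of the counts on genes in the controls, and 0.977%, 0.978% and 1.06% of them after treatment. The mean share went from 0.664% ± 0.0357 to 1.00% ± 0.0450 (SD, n = 3 each), a ratio of 1.51. This share uses raw library totals and carries no test. Of the 50 genes with the most reads on average, 4 were among the 6, and when the others of these 50 were left out of the total the ratio was 1.59.

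The make-up of this sum differed between the groups. The share of Calr in the counts of the 6 genes went from 19.9% ± 0.469 to 24.6% ± 0.530 (SD, n = 3 each), and that of Hspa5 from 24.9% ± 0.318 to 20.9% ± 0.458. P4hb went from 18.8% ± 0.189 to 21.1% ± 0.140 and Pdia4 from 7.90% ± 0.150 to 8.84% ± 0.154. Hsp90b1 went from 15.7% ± 0.749 to 13.5% ± 0.202 and Canx from 12.8% ± 0.0508 to 11.2% ± 0.508. In each of the 6 genes the shares of the groups did not overlap. The shares are parts of the same sum, so a rise in some brings a fall in others. They are therefore not 6 separate results. Separation of relative levels was also common elsewhere. Ratios of the counts of 2 genes did not overlap between the groups in 67.9% of all pairs of tested genes with a count in every library. The values given here are shares of reads. Transcript lengths were not used, so they do not rank the genes by number of transcripts.

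The ratio of the counts of 2 genes in the same library does not depend on how libraries are scaled. For the 15 pairs of the 6 genes, the ratios of the groups did not overlap in 11. Over all pairs of the 12501 tested genes with a count in every library the ratios did not overlap in 67.9%, so this number of pairs is not particular to the chaperones. The largest difference was in the ratio of Calr to Hspa5. It was 0.809, 0.792 and 0.797 in the controls and 1.14, 1.21 and 1.18 with MS-275, so that Calr took fewer reads than Hspa5 in each control and more in each treated library. The means differed 1.48-fold. The ratio of Calr to Canx, the soluble to the membrane-bound lectin, was 1.59, 1.53 and 1.56 in the controls and 2.24, 2.31 and 2.05 with MS-275, a 1.41-fold difference. The ratio of P4hb to Hspa5 was 0.744, 0.770 and 0.748 in the controls and 0.983, 1.01 and 1.04 with MS-275, a 1.34-fold difference.

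The 4 pairs with overlapping ratios were those among Canx, Hsp90b1 and Hspa5, and P4hb with Pdia4. The ratio of P4hb to Pdia4 was the steadiest. It was 2.40, 2.35 and 2.39 in the controls and 2.33, 2.38 and 2.44 with MS-275, a ratio of the means of 1.00, with an SD of 0.01 on the log2 scale in the controls and 0.03 with MS-275 (n = 3 each). Hsp90b1 to Hspa5 was 0.587, 0.652 and 0.650 in the controls and 0.629, 0.640 and 0.671 with MS-275. The ratio of Canx to Hspa5 was 0.507, 0.517 and 0.511 in the controls and 0.509, 0.525 and 0.576 with MS-275, where replicate 3 was the highest. Exact permutation tests gave p = 0.1 (two-sided) for each of the 11 pairs without overlap, which is the lower limit of this design, and 0.136 after Benjamini-Hochberg adjustment over the 15 pairs. For the 4 others the unadjusted p was between 0.3 and 1. The comparison of ratios was chosen after the fold changes were seen.

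**Figure D5:**
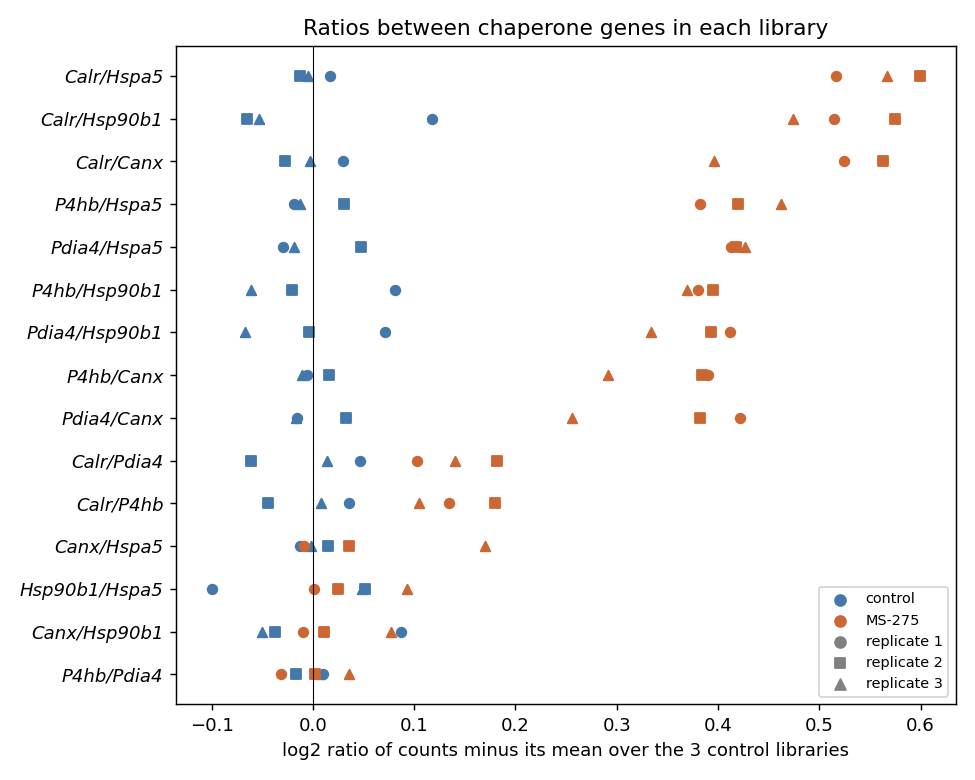
Log2 ratio of the counts of 2 genes in each library, minus its mean over the 3 control libraries, for the 15 pairs; controls are blue, MS-275 libraries orange, and marker shapes give the replicate number. The 11 upper pairs show no overlap between the groups, and the 4 lowest pairs, among them P4hb/Pdia4, overlap.

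The profile of each gene over the 6 libraries was compared as log2 CPM centred on its mean, with the root mean square difference as the measure of likeness. P4hb and Pdia4 were the nearest to each other, at 0.02. The nearest to Hspa5 was Hsp90b1 at 0.06, and Hsp90b1 and Canx were nearest to each other at 0.05. Calr was nearest to P4hb, at 0.08. Of the other genes, 4923 averaged 50 CPM or more. Among them the nearest to the mean profile of the 6 were ENSRNOG00000013061 at 0.02, with a log2 fold change of 0.64, and ENSRNOG00000016781 at 0.02, with 0.66. Their symbols are not given in the tables used here. Between 58 and 385 of these 4923 genes were nearer to the mean profile than a given one of the 6 was, so the shared profile is not particular to the chaperones.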

How the data were processed

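RNA-seq was performed on 6 BRIN-BD11 libraries, 3 control and 3 MS-275. After removal of contaminants with bowtie2, the authors mapped the reads to Rnor_6.0 with STAR (the submitters' processing notes also name Trimmomatic) and deposited raw read counts for 22250 Ensembl genes per library. Their methods name featureCounts, but each table ends with 5 summary lines in htseq-count style. The summary lines entered neither the library sizes nor the tests. Counts on genes made up 29.2% to 31.4% of the alignments tabulated, lines without a feature 60.2% to 61.9%. Annotation release and strand setting are not given in the sources used here, so overlapping or antisense genes cannot be told apart. A deposited table of the authors' own DESeq2 comparison was not used.

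Genes were filtered with filterByExpr, scaled by TMM and tested with edgeR 4.0.16 (R 4.3.3), glmQLFit with robust estimates and no block, on all 6 libraries. The standard error is the absolute log2 fold change over the square root of F, and the 95% interval uses the degrees of freedom of the test. Scripts were tested on simulated data. The alternatives were other scalings, DESeq2 1.42.0, other filters, a replicate block, stricter thresholds and leaving out each library. Named genes were the 6 chaperones. Rules that needed symbols for other genes could not be applied, and the 2 nearest profiles are named by identifier after their values were seen. The 6 genes, the lists and the tests were chosen with earlier results of these data known. Motifs were searched in RefSeq promoter windows of GRCr8.

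Replicate numbers were not treated as pairs. Deviations from the group means correlated at 0.16 between the libraries numbered 1, at -0.02 between those numbered 2 and at 0.13 between those numbered 3. Between control and MS-275 libraries with unlike numbers the correlations ran from -0.238 to 0.155. No source says that a number marks a shared day.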

Additional observations from a re-analysis of the deposited data

Results flagged for a closer look

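Alignments to more than 1 place, which the gene counts leave out, were more frequent after MS-275, at 8.89% ± 0.264 (SD, n = 3) of all alignments, than in the controls, at 8.04% ± 0.130 (SD, n = 3), and the groups did not overlap. Where they lie is not recorded, and whether any belong to the chaperone genes or to copies of them was not tested.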

How the results depend on the processing

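Each of the 78 values of the 6 log2 fold changes under an alternative kept its direction and an adjusted p under 0.05. Over the alternatives, the highest adjusted p was 0.00345, that of Hspa5 without control replicate 2, in edgeR's quasi-likelihood test. Scaling moved the values and the median of all genes alike: by library sizes alone the median of the 6 genes was 0.58 and that of all genes -0.08, and with upper-quartile scaling 0.74 and 0.08. Only with upper-quartile scaling (1.06) and without control replicate 3 (1.00) did Calr reach a log2 fold change of 1. With no low-count filter the median of all genes was 0.10, and with DESeq2 it was 0.12, against 0.63 and 0.65 for the 6 genes. When a log2 fold change of 1 or more in size was required, 0 of the 6 genes were called, and the calls over all genes were 1754 higher and 650 lower in place of 4039 and 3966, which follows from the stricter rule. The increase of the summed share was 0.340 percentage points, and between 0.314 and 0.356 with each library left out. When the other most abundant genes were left out of the total, it was 0.433. The smaller total raises the difference, but the ratio of the groups was also higher, 1.59 in place of 1.51. The genes left out thus took a larger part of the counts with MS-275 than in the controls. The order of the 6 fold changes was the same in 10 of 13 settings. It changed without control replicate 1, control replicate 2 or MS-275 replicate 3, each time between neighbours.

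With the replicate number as a block, the log2 fold changes were 0.41 for Hspa5 and 0.97 for Calr, 6 of 6 genes were called higher, and no call changed. The alternatives set for lists of other endoplasmic reticulum genes were not run, since their symbols could not be matched. The lowest count of the 6 genes in any library was 3081, and an effect of depth was not tested.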
